A study of Mus musculus with 37 samples.

Results

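The 10 genes described here encode ligands, receptors and extracellular regulators of TGF-β and bone morphogenetic protein (BMP) signalling: the ligand genes Tgfb1, Tgfb2, Tgfb3, Bmp4 and Inhba, the receptor genes Tgfbr1 and Tgfbr2, the latency protein genes Ltbp1 and Ltbp2, and the antagonist gene Grem1. They were chosen by name for their place in the pathway, with earlier results of these data known, and all 10 were found among the 30892 genes of the cardiac fibroblast (CF) table, the 20158 genes of the neonatal rat ventricular myocyte (NRVM) table and the 31053 genes of the single-cell tables. The study asked how ENPP1, an ectonucleotidase that splits extracellular ATP into AMP and pyrophosphate, acts between myocytes and nonmyocytes of the injured heart. CFs were wild type C57BL/6 cells immortalized with the SV40 antigen, and they were grown for 24 or 48 hours in myocyte conditioned medium taken from NRVM that had been given vehicle, ENPP1 protein, ATP, both together (ENPP1+ATP) or AMP, with 2 libraries per medium and time. NRVM were wild type Sprague-Dawley cells at 24 hours under the same 5 treatments, which their labels also call conditioned medium, with 3 libraries each. The paper reports that CFs died in ENPP1+ATP medium and in AMP medium. For ENPP1+ATP medium it also reports cell-cycle arrest and a DNA damage response in CFs. The CF libraries of these media may thus hold RNA of dying or surviving cells, and the part of cell death in the results was not tested. For single cells, nonmyocytes were taken from injured C57BL/6 hearts 7 days after myocardial infarction, in 1 library of mice lacking Enpp1 in Col1a2-expressing cells (ENPP1CKO, Col1a2-CreERT with floxed Enpp1 and tamoxifen from 5 days before to 7 days after injury) and 1 library of wild type controls. Whether the controls received tamoxifen, the animals' ages and the number of hearts per library were not given in the sources used here, and immortalized CFs are a line rather than freshly isolated fibroblasts.

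TGF-β ligands are secreted in a latent complex with their own propeptide, which LTBP proteins tether to the extracellular matrix. Once released, TGF-β dimers bring together a type II receptor (the product of Tgfbr2) and a type I receptor (the product of Tgfbr1), which phosphorylate SMAD transcription factors, whereas BMP ligands signal through other receptors of the family to a separate set of SMADs and to targets such as the Id genes. In the heart the TGF-β arm is best known for driving fibroblasts toward matrix-producing myofibroblasts after injury.

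The promoters of 4 members are shown first: Bmp4, Tgfb2 and Ltbp1, which had the 3 largest changes in CFs with ENPP1+ATP medium at 24 hours, all falls, and Ltbp2, which had the largest rise with that medium at 48 hours. Each is the 250 bases before a RefSeq start on mouse build GRCm38.p6, printed 5′ to 3′ on the gene's strand: Bmp4 at chr14:46390670-46390919 (minus strand), Tgfb2 at chr1:186705990-186706239 (minus), the upstream start of Ltbp1 at chr17:75005279-75005528 (plus) and Ltbp2 at chr12:84876492-84876741 (minus). Capitals mark matches on either strand to CAGAC (the SMAD box), GGCGCC (the GC-rich SMAD element), TGANTCA (AP-1) or TGACG (the CRE core).
Bmp4: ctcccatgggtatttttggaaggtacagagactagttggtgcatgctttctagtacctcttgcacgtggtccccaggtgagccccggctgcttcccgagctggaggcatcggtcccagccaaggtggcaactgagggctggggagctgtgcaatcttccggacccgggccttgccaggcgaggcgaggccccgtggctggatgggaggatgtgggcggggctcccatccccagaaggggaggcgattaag
Tgfb2: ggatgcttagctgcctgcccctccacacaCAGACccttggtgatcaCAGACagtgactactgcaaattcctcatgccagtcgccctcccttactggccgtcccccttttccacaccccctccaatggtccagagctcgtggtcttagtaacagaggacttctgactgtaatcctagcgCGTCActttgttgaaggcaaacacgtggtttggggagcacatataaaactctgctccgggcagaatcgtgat
Ltbp1: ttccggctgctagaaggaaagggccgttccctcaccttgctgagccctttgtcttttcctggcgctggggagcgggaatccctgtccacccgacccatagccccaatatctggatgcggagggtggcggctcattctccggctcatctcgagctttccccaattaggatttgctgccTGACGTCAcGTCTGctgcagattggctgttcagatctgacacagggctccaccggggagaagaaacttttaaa
Ltbp2: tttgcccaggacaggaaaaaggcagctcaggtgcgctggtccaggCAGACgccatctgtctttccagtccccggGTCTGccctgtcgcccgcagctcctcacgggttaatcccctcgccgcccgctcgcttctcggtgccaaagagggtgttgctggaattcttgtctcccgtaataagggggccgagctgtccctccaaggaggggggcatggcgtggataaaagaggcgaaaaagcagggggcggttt
None of the 4 motifs was present in the Bmp4 window. Tgfb2 and Ltbp2 each carried 2 SMAD boxes, and Tgfb2 also carried 1 CRE core. The Ltbp1 window held 1 SMAD box and 2 CRE cores that lie over each other as the palindrome in capitals. CAGAC was found in 42.2% of all 32851 promoters of the table, TGACG in 17.8%, GGCGCC in 9.59% and TGANTCA in 6.75%, so a match is a description of the letters and not a site. Promoters matched 9 of the 10 members, and among them Grem1, Tgfbr1 and Tgfbr2 also held a SMAD box in at least 1 window while Tgfb1 and Inhba held none of the 4 motifs.

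Counts summed to between 32184799 and 115824659 per CF library and between 13481389 and 16977980 per NRVM library, and 17879 CF genes and 13461 NRVM genes passed the filter on low counts, all 10 members among them in both tables. CFs carried Col1a1, Col1a2 and Col3a1 at high levels (4018, 1050 and 1842 CPM, which are read counts scaled to a common library size, in vehicle medium at 24 hours), together with Pdgfra (25.2 CPM), Dcn (13.01 CPM) and Tcf21 (2.82 CPM), whereas Lum and Thy1 were near 0 (0.313 and 0.0328 CPM). The NRVM libraries held both myocyte and fibroblast transcripts: 8 cardiomyocyte markers summed to between 16034 CPM (ATP) and 28812 CPM (AMP) and 7 fibroblast markers to between 7876 CPM (ENPP1+ATP) and 23639 CPM (vehicle). In these bulk samples, fewer cells of a type and less RNA per cell cannot be told apart. The labels do not say whether libraries of a group came from separate cultures, although the paper describes its n values as biological replicates. The p-values measure the spread between these libraries, which may be technical. All levels below are CPM scaled by edgeR's TMM factors, differences are log2 fold changes ± SE, and a change is called at an adjusted p under 0.05 from edgeR's quasi-likelihood test with Benjamini-Hochberg adjustment over all genes tested; the comparisons with vehicle share the vehicle libraries.

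With medium from NRVM given ENPP1 alone, none of the 10 genes was called in CFs, which does not show that they were unchanged. At 24 hours edgeR called 0 of 10 members beside 0% of all genes; 1 member, Tgfbr2, had an unadjusted p under 0.05, as did 249 genes, and DESeq2 called 0 genes. At 48 hours edgeR again called 0 of 10 beside 0% of all genes, 1 member (Ltbp1) and 743 genes had an unadjusted p under 0.05, and DESeq2 called 0. Medium with ATP alone moved 3 members up and 3 down at 24 hours, where 11.1% of all genes were called, and 4 up and 2 down at 48 hours, where 7.83% were called. Each of these rises with ATP lost its call when 1 library was left out, as given with the genes, and the count at 48 hours fell from 6 to 2 without ATP replicate 2 and to 3 without vehicle replicate 2. ENPP1+ATP medium moved 1 member up and 5 down at 24 hours, against 49.1% of all genes called, and 4 up and 3 down at 48 hours, against 45.2%. AMP medium moved 3 up and 5 down at 24 hours beside 52.8% of all genes, and 4 up and 3 down at 48 hours beside 44% of all genes. With ENPP1+ATP and AMP, about as many genes passed as failed, so a count of members near that share says little about the members; the sizes and directions follow.

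**Figure D1:**
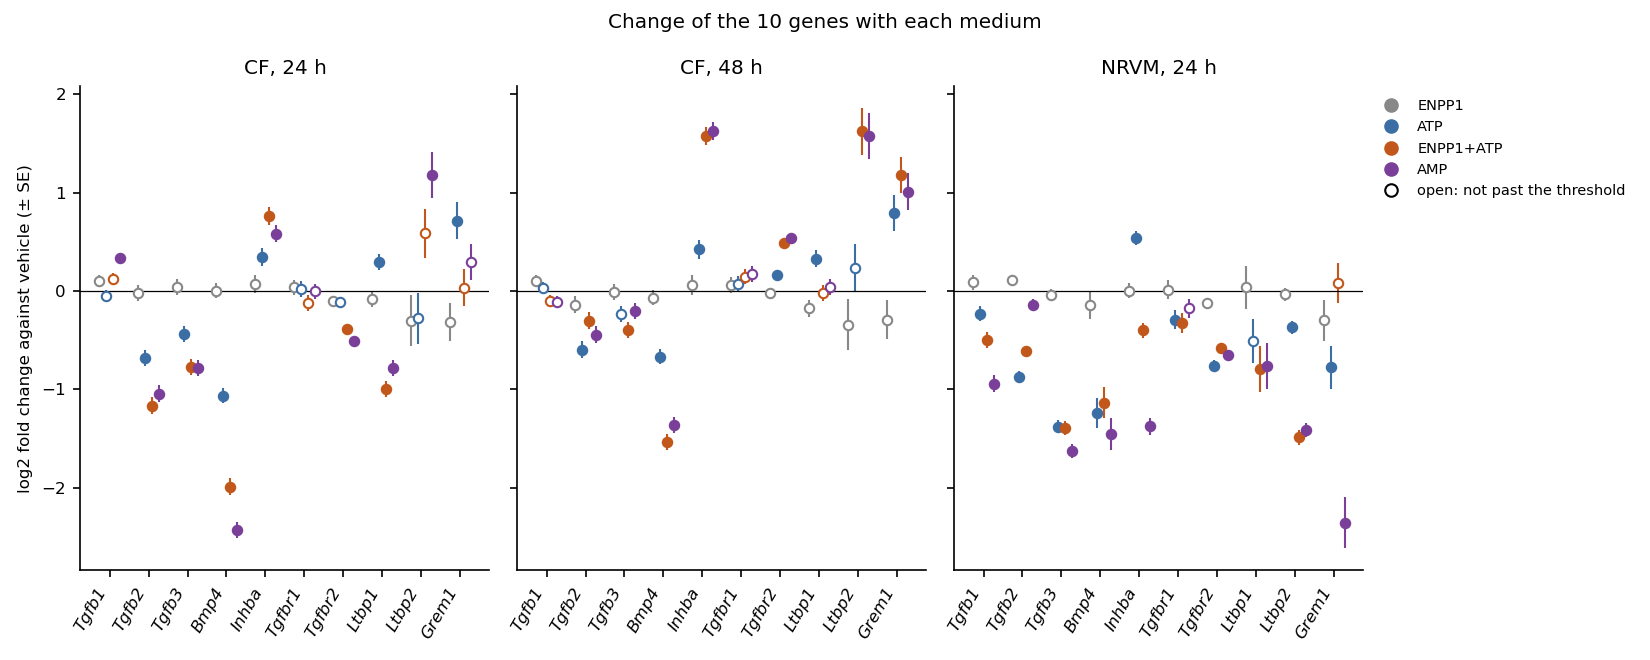
Log2 fold change against vehicle (y axis, ± SE) of each gene (x axis) in CFs at 24 and 48 hours and in NRVM, with colours for the medium and open symbols for changes that did not pass an adjusted p of 0.05. Bmp4 lies below 0 with ATP, ENPP1+ATP and AMP in all 3 panels, whereas Tgfbr2 with ENPP1+ATP lies at -0.38 in CFs at 24 hours, at 0.49 at 48 hours and at -0.58 in NRVM.

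Bmp4 (ENSMUSG00000021835, chr14:46383520-46390669, minus strand, GRCm38), a BMP ligand, showed the largest fall of the 10 in CFs. At 24 hours its level was 64.0 and 68.6 CPM in the vehicle libraries, 31.2 and 32.2 with ATP, 16.4 and 17.0 with ENPP1+ATP, and 12.7 and 12.0 with AMP. The vehicle libraries were highest, each later medium in that order lay wholly below the one before, and no groups overlapped. The fall was 1.06 ± 0.08 with ATP (adjusted p = 1.84e-09), 1.99 ± 0.08 with ENPP1+ATP (adjusted p = 2.2e-15) and 2.43 ± 0.08 with AMP (adjusted p = 3.32e-17) on the log2 scale, in edgeR's test. At 48 hours Bmp4 was 75.8 and 77.9 CPM in vehicle, 51.4 and 45.3 with ATP, 25.8 and 27.2 with ENPP1+ATP, and 33.3 and 26.6 with AMP. It was thus lower than vehicle in every library of these 3 media, although AMP and ENPP1+ATP now overlapped. The changes at 48 hours were -0.67 ± 0.08, -1.53 ± 0.08 and -1.36 ± 0.08 in that order.

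Tgfb2 (chr1:186622792-186705989, minus strand) and Tgfb3 (chr12:86056745-86079041, minus strand), the TGF-β ligands of developing heart valves and palate among other tissues, fell with the same 3 media. Tgfb2 measured 29.0 and 30.9 CPM in vehicle at 24 hours against 17.98 and 19.4 with ATP, 12.4 and 14.2 with ENPP1+ATP and 14.5 and 14.5 with AMP. The ATP libraries lay between vehicle and the other media. Its change was -0.68 ± 0.08 with ATP, -1.17 ± 0.09 with ENPP1+ATP (adjusted p = 4.85e-11) and -1.04 ± 0.09 with AMP. At 48 hours, Tgfb2 was 27.5 and 23.8 CPM in vehicle, 16.1 and 17.9 with ATP, 20.8 and 20.9 with ENPP1+ATP and 18.2 and 19.5 with AMP, and the fall with ENPP1+ATP had shrunk to 0.30 ± 0.09 (adjusted p = 0.00557). That call was lost without vehicle replicate 1 (a fall of 0.19, adjusted p = 0.171). Tgfb3 was 39.8 and 39.1 CPM in vehicle at 24 hours and fell to 28.7 and 29.6 with ATP, 22.2 and 24.1 with ENPP1+ATP and 22.1 and 23.8 with AMP, without overlap with vehicle. Its changes at 24 hours were -0.44 ± 0.08, -0.77 ± 0.08 and -0.78 ± 0.08, all called. At 48 hours Tgfb3 with ENPP1+ATP was 25.2 and 29.2 CPM against 34.7 and 36.7 in vehicle (-0.39 ± 0.08, adjusted p = 0.000323). With AMP its change of -0.21 ± 0.08 was called (adjusted p = 0.0429) but not by DESeq2 (adjusted p = 0.0993) or without AMP replicate 1 (-0.10, adjusted p = 0.43), vehicle replicate 1 (adjusted p = 0.0749) or vehicle replicate 2 (adjusted p = 0.219), and with ATP its change of -0.23 was not called.

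Tgfb1 (chr7:25687002-25705077, plus strand), the ligand most often tied to fibrosis, stayed within a narrow band. It measured 98.2 and 90.8 CPM in vehicle, 93.4 and 89.6 with ATP, 103 and 102 with ENPP1+ATP and 118 and 120 with AMP at 24 hours. The AMP libraries were the highest of all 20, and that rise of 0.33 ± 0.06 (adjusted p = 4.76e-05) was the only call for Tgfb1 against vehicle in CFs. All CF libraries at 48 hours lay between 89.4 and 116 CPM, and neither ENPP1+ATP (-0.10, adjusted p = 0.188) nor AMP (-0.12, adjusted p = 0.133) passed. Inhba (chr13:16011851-16031621, plus strand), whose product dimerizes into activin A, went the opposite way to Bmp4. It was 15.7 and 16.6 CPM in vehicle at 24 hours, 19.1 and 21.7 with ATP, 27.4 and 27.0 with ENPP1+ATP, and 21.7 and 26.3 with AMP. At 48 hours it was 12.1 and 12.3 CPM in vehicle, 15.8 and 16.9 with ATP, 37.3 and 35.5 with ENPP1+ATP and 40.2 and 35.1 with AMP, so the highest vehicle library lay below the lowest library of the other 3 media at both times. With ATP its rises of 0.34 ± 0.09 at 24 hours and 0.43 ± 0.10 at 48 hours were called, but not without ATP replicate 2 (adjusted p = 0.216 and 0.0689) or vehicle replicate 1 (adjusted p = 0.201 and 0.0641). Its rise with ENPP1+ATP was 0.76 ± 0.09 at 24 hours (adjusted p = 1.59e-07) and 1.58 ± 0.09 at 48 hours (adjusted p = 7.24e-13).

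**Figure D2:**
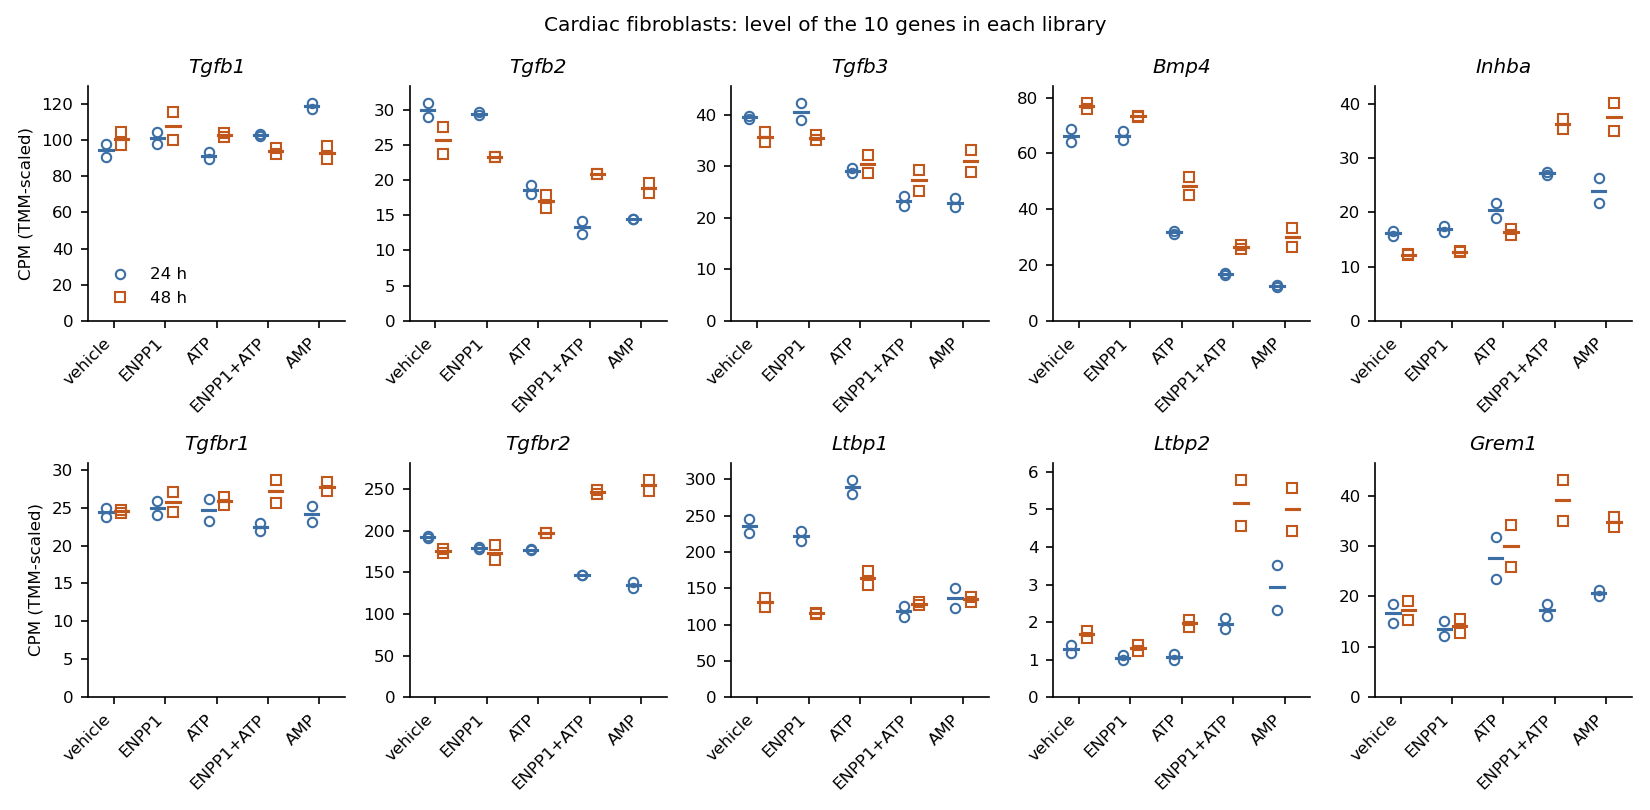
TMM-scaled CPM (y axis) of each gene in every CF library by medium (x axis), with circles for 24 hours, squares for 48 hours and short lines for the mean of the 2 libraries. Bmp4 falls from 64.0 and 68.6 CPM in vehicle to 12.7 and 12.0 with AMP at 24 hours, and Tgfbr2 with ENPP1+ATP or AMP lies below vehicle at 24 hours and above it at 48 hours.

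The receptor genes differed from each other. Tgfbr2 (chr9:116084293-116175360, minus strand), the type II receptor, was 193 and 191 CPM in vehicle at 24 hours, 178 and 177 with ATP, 147 and 147 with ENPP1+ATP and 131 and 138 with AMP. At 48 hours it was 178 and 173 CPM in vehicle, 197 and 198 with ATP, 248 and 244 with ENPP1+ATP and 261 and 248 with AMP. The order of the media was thus turned around between the times, with no overlap between vehicle and ENPP1+ATP or AMP at either. The change with ENPP1+ATP was -0.38 ± 0.05 at 24 hours (adjusted p = 2.86e-07) and 0.49 ± 0.05 at 48 hours (adjusted p = 6.36e-09), and with AMP -0.51 ± 0.05 and 0.53 ± 0.05. With ATP the rise of 0.17 at 48 hours passed (adjusted p = 0.0284) but no longer when any of the 4 libraries was left out (adjusted p from 0.0818 to 0.249). Tgfbr1 (chr4:47353222-47414931, plus strand), the type I receptor, ranged only from 21.9 to 28.7 CPM over the 20 libraries, and no medium moved it past the threshold against vehicle at either time with TMM factors. Its largest change was 0.18 ± 0.08 with AMP at 48 hours (adjusted p = 0.0788), which passed with RLE factors (0.20, adjusted p = 0.048).

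Of the latency proteins, Ltbp1 (chr17:75005568-75392512, plus strand) fell with ENPP1+ATP and AMP at 24 hours but not at 48 hours. It was 227 and 245 CPM in vehicle, 299 and 279 with ATP, 111 and 126 with ENPP1+ATP and 123 and 150 with AMP. The ATP libraries were the highest and those of the other 2 media the lowest, with vehicle between. The changes were 0.30 ± 0.08 (adjusted p = 0.0217), -0.99 ± 0.08 (adjusted p = 7.54e-09) and -0.79 ± 0.08 (adjusted p = 1.33e-07). At 48 hours vehicle itself had dropped to 136 and 125 CPM, next to 130 and 127 with ENPP1+ATP and 131 and 138 with AMP, and neither change was called (-0.02, adjusted p = 0.886, and 0.04, adjusted p = 0.712). With ATP it was 155 and 174 CPM at 48 hours, above vehicle (0.33 ± 0.08, adjusted p = 0.0155), a call lost without ATP replicate 2 (0.25, adjusted p = 0.199) or vehicle replicate 2 (0.27, adjusted p = 0.19). The rise with ATP at 24 hours lost its call without ATP replicate 1 (0.25, adjusted p = 0.225) or vehicle replicate 1 (0.24, adjusted p = 0.25). Ltbp2 (chr12:84783212-84876532, minus strand), an LTBP that does not bind latent TGF-β, was low in CFs. At 48 hours it was 1.77 and 1.58 CPM in vehicle against 4.57 and 5.79 with ENPP1+ATP and 4.42 and 5.58 with AMP, rises of 1.62 ± 0.24 (adjusted p = 3.43e-06) and 1.58 ± 0.24 (adjusted p = 5.36e-06). At 24 hours Ltbp2 rose with AMP, from 1.40 and 1.18 to 2.33 and 3.52 CPM (1.18 ± 0.24), whereas its change of 0.58 ± 0.25 with ENPP1+ATP was not called (adjusted p = 0.0527).

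Grem1 (chr2:113746164-113758646, minus strand), a secreted antagonist that binds BMP ligands including BMP4, rose late with ENPP1+ATP and AMP. At 24 hours it was 18.5 and 14.8 CPM in vehicle, 31.8 and 23.5 with ATP, 18.4 and 16.1 with ENPP1+ATP and 20.1 and 21.2 with AMP, and only the change with ATP was called (0.72 ± 0.19, adjusted p = 0.0235). That call did not hold without ATP replicate 1 (0.48, adjusted p = 0.228) or vehicle replicate 2 (0.58, adjusted p = 0.172). At 48 hours Grem1 was 19.1 and 15.4 CPM in vehicle, 25.8 and 34.2 with ATP, 43.1 and 35.0 with ENPP1+ATP and 33.8 and 35.7 with AMP. All of these libraries lay above vehicle, with changes of 0.79 ± 0.19, 1.18 ± 0.19 (adjusted p = 0.000129) and 1.01 ± 0.19 (adjusted p = 0.000522). The call with ATP was lost without ATP replicate 2 (0.58, adjusted p = 0.136) or vehicle replicate 2 (0.65, adjusted p = 0.166). Per kilobase of exon the order of levels in vehicle at 24 hours was Bmp4 (29.5 CPM per kb), Tgfbr2 (23.4), Ltbp1 (22.1), Tgfb1 (18.7), Tgfb3 (11.7), Tgfb2 (5.17), Grem1 (4.02), Tgfbr1 (3.73), Inhba (2.52) and Ltbp2 (0.158). In that order the 2 libraries of neighbouring genes overlapped only for Grem1 (3.57 and 4.46) and Tgfbr1 (3.65 and 3.82).

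Direct comparisons of the media asked whether ENPP1 acting on ATP differed from ATP alone, and whether AMP, a product of that reaction, acted like the pair. ENPP1+ATP against ATP gave 3 members higher (Inhba, Ltbp2, Tgfb1) and 6 lower at 24 hours, where 43.9% of all genes were called, and 4 higher (Inhba, Ltbp2, Tgfb2, Tgfbr2) and 2 lower (Bmp4, Ltbp1) at 48 hours, where 39.5% were called. Against ATP at 24 hours, Tgfb1 lost its call without any 1 of the 4 libraries (adjusted p from 0.0552 to 0.205), Grem1 without ATP replicate 1 (adjusted p = 0.105) or ENPP1+ATP replicate 2 (adjusted p = 0.0837), and Ltbp2 without ATP replicate 2 (adjusted p = 0.0841) or ENPP1+ATP replicate 2 (adjusted p = 0.0751), as did Tgfb2 at 48 hours without ATP replicate 1 (adjusted p = 0.161). The largest of these differences were -1.29 ± 0.08 for Ltbp1 at 24 hours and 1.39 ± 0.24 for Ltbp2 at 48 hours, while Bmp4 was lower by a similar margin at both times (-0.93 ± 0.09 and -0.87 ± 0.08). AMP against ENPP1+ATP called Tgfb1 higher (0.21 ± 0.06, adjusted p = 0.0367) and Bmp4 lower (-0.44 ± 0.09, adjusted p = 0.00455) at 24 hours, beside 6.25% of all genes. The Tgfb1 call was lost without any 1 of the 4 libraries (adjusted p from 0.0817 to 0.175). At 48 hours edgeR called 0 of 10 members beside 0.162% of all genes (29 genes), DESeq2 also called 0 of 10 (125 genes in all), and 2 members, Bmp4 and Tgfb3, had an unadjusted p under 0.05. The differences at 48 hours ranged from -0.17 ± 0.18 (Grem1) to 0.19 ± 0.08 (Tgfb3), which does not show that the media act alike.

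Between 24 and 48 hours, vehicle-treated CFs lost Ltbp1 (-0.85 ± 0.08, adjusted p = 5.88e-06) and Inhba (-0.40 ± 0.09, adjusted p = 0.0123), and no other member was called beside 4.88% of all genes. The Inhba call was lost without vehicle replicate 2 at 24 hours (adjusted p = 0.134) or either vehicle library at 48 hours (adjusted p = 0.141 and 0.0918). In ENPP1+ATP medium 8 members rose and 0 fell, where 40.7% of all genes were called, led by Ltbp2 (1.40), Grem1 (1.18) and Tgfbr2 (0.74). Of these rises, Tgfb3 lost its call without ENPP1+ATP replicate 1 at 24 hours (adjusted p = 0.23) or replicate 2 at 48 hours (adjusted p = 0.349), and Tgfbr1 without replicate 2 at 24 hours (adjusted p = 0.0791) or replicate 1 at 48 hours (adjusted p = 0.116). In AMP medium 7 rose and 1, Tgfb1, fell (-0.35 ± 0.06), beside 43.1% of all genes, and the Ltbp2 rise lost its call without AMP replicate 1 at 24 hours (adjusted p = 0.121) or replicate 2 at 48 hours (adjusted p = 0.108). The effect against vehicle itself was more positive at 48 than at 24 hours for 8 of 10 members with ENPP1+ATP (30% of all genes differed) and for 6 of 10 with AMP, with Tgfb1 more negative (31.7% of all genes). With ENPP1+ATP, these time differences lost their call for Ltbp2 and Tgfb3 when 1 of several libraries was left out (adjusted p from 0.0872 to 0.134 and from 0.0581 to 0.112). For Tgfbr2 that difference between the times was 0.87 ± 0.07 with ENPP1+ATP (adjusted p = 8.65e-10) and 1.05 ± 0.07 with AMP (adjusted p = 2.92e-11). With ATP alone 1 member, Tgfbr2, was called (0.28 ± 0.07, adjusted p = 0.0332) beside 1.16% of all genes, and the call was lost when any of the 8 libraries was left out. Comparing the genes over the 20 CF libraries, which share media and times, the genes whose log2 CPM followed Bmp4 most closely were Fat4 (r = 0.986), Col4a5 (r = 0.985) and Impad1 (r = 0.985), and those nearest to Ltbp1 were Aida (r = 0.951), Psme1 (r = 0.949) and Tbrg1 (r = 0.941). For Tgfb2 they were Adgrg6 (r = 0.930), Top2b (r = 0.926) and Anxa6 (r = 0.926).

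The rest of the pathway, 86 genes in 7 lists, was examined in CFs with ENPP1+ATP medium, where 23.9% of all genes rose and 25.3% fell at 24 hours and 20.8% rose and 24.4% fell at 48 hours. Of 10 tested other ligands, 2 rose and 3 fell at 24 hours (median log2 fold change -0.165, beside -0.00456 over all genes) and 5 rose and 2 fell at 48 hours (median 0.56, beside -0.0269). Gdf15, a stress-induced ligand of the family, rose from 37.2 to 110 CPM at 24 hours (1.57 ± 0.08) and from 45.2 to 135 CPM at 48 hours (1.58 ± 0.08). Bmp6 fell from 25.7 to 8.997 CPM at 24 hours (-1.51 ± 0.11), and Inhbb, an activin β subunit gene, fell from 18.2 to 15.1 CPM at 24 hours (-0.28 ± 0.08, adjusted p = 0.00661) and rose from 15.6 to 48.4 CPM at 48 hours (1.63 ± 0.08). Among 10 other receptors, 0 rose and 6 fell at 24 hours (median -0.21), with Bmpr1a falling from 194 to 139 CPM (-0.48 ± 0.04), whereas 3 rose and 1 fell at 48 hours (median 0.0821), Eng, a coreceptor, among the former (0.66 ± 0.05). Of 11 tested latency and activation genes, 0 rose and 9 fell at 24 hours (median -0.87) and 1 rose and 8 fell at 48 hours (median -0.552). Fbn2 (-2.06 ± 0.19) and Itgb8 (-1.79 ± 0.18), an integrin subunit that helps release active TGF-β, fell furthest at 24 hours, and the gene that rose at 48 hours was Lrrc32, which tethers latent TGF-β to the cell surface (19.6 to 66.9 CPM, 1.77 ± 0.08).

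Of 14 TGF-β targets, 11 fell and 2 rose at 24 hours (median -0.819) and 11 fell and 0 rose at 48 hours (median -0.737), where 25.3% and 24.4% of all genes fell. Lox, which crosslinks collagen, went from 591 to 194 CPM at 24 hours (-1.61 ± 0.07) and from 710 to 215 CPM at 48 hours (-1.73 ± 0.07), and Tgfbi fell by 1.91 ± 0.10 and 1.22 ± 0.10. The 2 that rose at 24 hours were Ccn1 (0.34 ± 0.05) and Ccn2 (0.20 ± 0.08, adjusted p = 0.0365), which encode matricellular proteins. Of 8 BMP targets, 4 fell and 1 rose at 24 hours (median -0.356) and 5 fell and 0 rose at 48 hours (median -0.669). Id3, a direct BMP target, fell from 55.9 to 10.7 CPM at 24 hours (-2.39 ± 0.11, adjusted p = 6.03e-14) and from 83.9 to 11.9 CPM at 48 hours (-2.82 ± 0.11, adjusted p = 2.41e-15). Among 15 SMADs and SMAD regulators, 10 fell and 0 rose at 24 hours (median -0.249) and 7 fell and 5 rose at 48 hours (median -0.0483), and Smad6, an inhibitory SMAD, fell at both (-1.48 ± 0.10 and -1.59 ± 0.10). Of 10 tested extracellular and membrane inhibitors, 2 rose and 4 fell at 24 hours (median 0.141) and 2 rose and 3 fell at 48 hours (median -0.169), with Fstl1 falling by 1.31 ± 0.06 and 1.16 ± 0.06. Other cell type markers moved as well: the sum of 8 fibroblast markers went from 6951 CPM in vehicle to 3351 with ENPP1+ATP at 24 hours and from 6825 to 3543 at 48 hours, the sum of 7 smooth muscle or pericyte markers from 156 to 216 and from 166 to 407, and the sum of 7 macrophage markers from 3.11 to 24.6 and from 3.85 to 61.4, with at most 1 of the macrophage markers over 10 CPM. The sum of 6 monocyte markers, 1 of them over 1 CPM, was 53.7 and 55.6 CPM at 24 hours and 45.5 and 137 CPM at 48 hours. The fibroblast sum was mostly Col1a1, Col1a2 and Col3a1, which fell, and of these Col1a1 and Col1a2 are also in the TGF-β target list. Pdgfra fell too (25.2 to 5.51 CPM at 24 hours and 41.5 to 9.16 CPM at 48 hours). Tcf21 was also lower (2.82 to 1.01 CPM at 24 hours and 2.86 to 1.98 CPM at 48 hours). Dcn rose instead (13.01 to 19.1 CPM at 24 hours and 15.2 to 24.8 CPM at 48 hours). With AMP at 24 and 48 hours, the fibroblast sum was 2694 and 3767 CPM and the smooth muscle or pericyte sum 219 and 455. The macrophage sum was 46.1 and 67.2 CPM with AMP and the monocyte sum 65.2 and 144. With ATP at these times, the fibroblast sum was 5037 and 6459 CPM and the smooth muscle or pericyte sum 128 and 178. The macrophage sum was 7.27 and 7.98 CPM with ATP and the monocyte sum 54.4 and 75.8. The part of these markers in the results was not tested.

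In NRVM, medium or treatment with ENPP1 alone again called 0 of 10 members in edgeR beside 0% of all genes; 1 member (Tgfbr2) and 693 genes had an unadjusted p under 0.05, and DESeq2 called 1 gene and 0 members. ATP gave 1 member up and 8 down beside 59.9% of all genes, ENPP1+ATP 0 up and 9 down beside 56% of all genes, and AMP 0 up and 9 down beside 57.2% of all genes. In each of these comparisons about as many genes rose as fell over the table (28.6% up and 27.4% down with ENPP1+ATP).

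Tgfb3 fell furthest among the TGF-β ligands. It was 148, 153 and 150 CPM in vehicle against 51.7, 58.96 and 62.5 with ATP, 53.2, 62.4 and 55.7 with ENPP1+ATP and 44.1, 47.1 and 55.1 with AMP. Every treated library lay far below every vehicle library, and the 3 treatments overlapped. Its changes were -1.38 ± 0.07 (adjusted p = 3.22e-15), -1.39 ± 0.07 (adjusted p = 3.79e-15) and -1.62 ± 0.07 (adjusted p = 2.38e-16). Bmp4 fell in the same way, from 37.5, 33.1 and 37.3 CPM in vehicle to 12.9, 17.1 and 15.4 with ATP, 16.3, 19.1 and 13.6 with ENPP1+ATP and 10.3, 12.7 and 16.5 with AMP. Its changes were -1.24 ± 0.155, -1.14 ± 0.155 and -1.45 ± 0.16, with no overlap with vehicle. Tgfb2, at 199, 201 and 200 CPM in vehicle, was lowest with ATP (117, 105 and 106), intermediate with ENPP1+ATP (119, 134 and 138) and nearest vehicle with AMP (180, 177 and 187). The change with AMP was small (-0.14 ± 0.06, adjusted p = 0.0408) and lost its call with a replicate block (adjusted p = 0.0736). The call was also lost without AMP replicate 1 or 2 or any 1 of the 3 vehicle libraries (adjusted p from 0.0676 to 0.118). Tgfb1 went from 53.2, 53.8 and 55.3 CPM in vehicle to 43.2, 47.2 and 47.8 with ATP, 36.1, 41.2 and 37.3 with ENPP1+ATP and 25.3, 25.4 and 34.1 with AMP. These groups stepped down without overlap, by 0.23 ± 0.08, 0.50 ± 0.08 and 0.94 ± 0.08, the first of which lost its call without ATP replicate 1 (adjusted p = 0.0627).

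**Figure D3:**
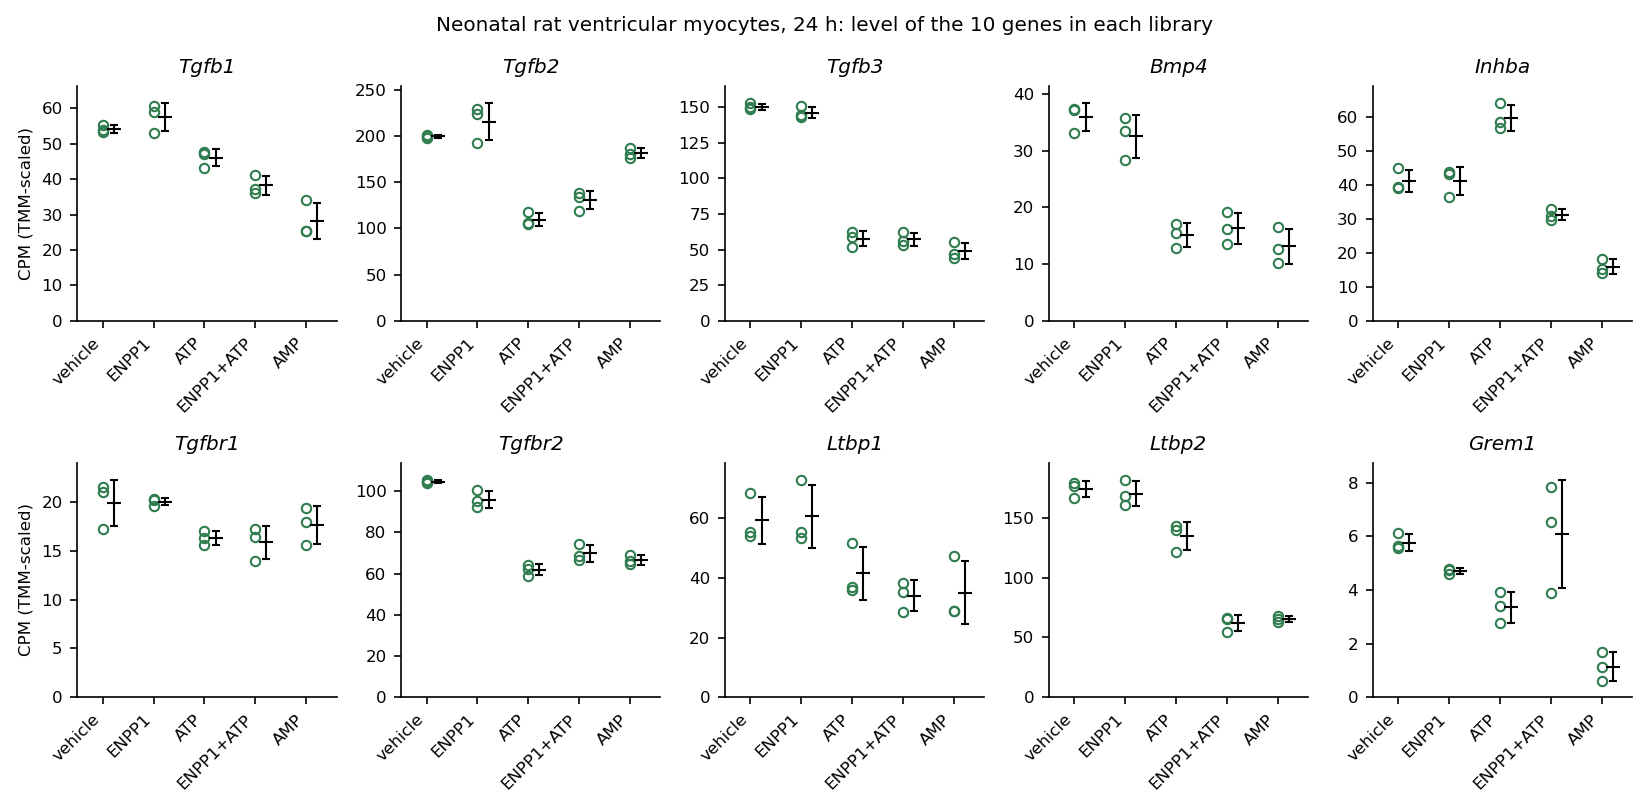
TMM-scaled CPM (y axis) of each gene in every NRVM library by treatment (x axis); circles are libraries, and the bar beside them is the mean ± SD of 3. Tgfb3 and Bmp4 drop with ATP, ENPP1+ATP and AMP alike, while Inhba is highest with ATP and lowest with AMP.

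Inhba separated the nucleotides. It measured 44.8, 39.0 and 39.3 CPM in vehicle, 58.4, 56.7 and 63.9 with ATP, 30.9, 32.8 and 29.6 with ENPP1+ATP and 14.1, 15.1 and 18.3 with AMP. No pair of these groups overlapped, and the changes were 0.54 ± 0.07, -0.40 ± 0.08 and -1.38 ± 0.09, all called. Grem1 was low, at 6.12, 5.65 and 5.55 CPM in vehicle, 3.402, 3.92 and 2.76 with ATP, 3.87, 7.85 and 6.52 with ENPP1+ATP and 1.12, 0.594 and 1.68 with AMP, the last from 17, 9 and 24 counts. The AMP libraries were the lowest of the 15 (-2.35 ± 0.26, adjusted p = 7.05e-10), and those with ENPP1+ATP spread on both sides of vehicle (0.08 ± 0.20, adjusted p = 0.751). Ltbp2 stood at 167, 179 and 177 CPM in vehicle, 121, 144 and 140 with ATP, 66.1, 65.7 and 54.4 with ENPP1+ATP and 65.6, 62.9 and 68.0 with AMP. Its fall of 1.49 ± 0.07 with ENPP1+ATP (adjusted p = 6.95e-13) and of 1.41 ± 0.07 with AMP left no overlap with ATP or vehicle, the opposite direction to its rise in CFs. Ltbp1 fell by 0.79 ± 0.23 with ENPP1+ATP (55.5, 53.9 and 68.4 CPM in vehicle to 28.4, 38.4 and 35.4), a call lost without ENPP1+ATP replicate 1 (adjusted p = 0.0517) or vehicle replicate 3 (adjusted p = 0.0508). With AMP its fall of 0.76 ± 0.23 (adjusted p = 0.0158) lost its call without AMP replicate 1 or 2 or vehicle replicate 3 (adjusted p from 0.0592 to 0.0614).

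Tgfbr2 fell in NRVM with every nucleotide, from 104, 104 and 105 CPM in vehicle to 59.01, 64.2 and 62.2 with ATP, 66.7, 74.5 and 68.5 with ENPP1+ATP and 64.5, 66.0 and 69.1 with AMP. All 9 treated libraries lay below all 3 of vehicle, and the changes were -0.76 ± 0.05, -0.58 ± 0.05 and -0.65 ± 0.05. Tgfbr1 fell less, from 17.2, 21.6 and 21.1 CPM to 14.0, 16.4 and 17.3 with ENPP1+ATP (-0.32 ± 0.10, adjusted p = 0.00553), and these groups overlapped. That call was lost without ENPP1+ATP replicate 1 (-0.24, adjusted p = 0.0626) and stood at an adjusted p of 0.05 without vehicle replicate 2. With ATP its change of -0.29 ± 0.10 (adjusted p = 0.011) lost its call without vehicle replicate 2 (adjusted p = 0.0802) or 3 (adjusted p = 0.0537). ENPP1+ATP against ATP called 3 members higher (Grem1, Tgfb2, Tgfbr2) and 3 lower (Inhba, Ltbp2, Tgfb1) beside 27.5% of all genes, with Ltbp2 (-1.12 ± 0.07) and Inhba (-0.94 ± 0.08) the furthest apart. Tgfb1 lost this call without ATP replicate 2 or 3 or ENPP1+ATP replicate 1 or 3 (adjusted p from 0.0505 to 0.0646), and Tgfbr2 without ATP replicate 1 (adjusted p = 0.0655) or ENPP1+ATP replicate 2 (adjusted p = 0.109). AMP against ENPP1+ATP called Tgfb2 higher (0.47 ± 0.06) and Grem1 (-2.44 ± 0.26), Inhba (-0.98 ± 0.09), Tgfb1 (-0.44 ± 0.09) and Tgfb3 (-0.23 ± 0.07) lower, beside 9.66% of all genes, and the Tgfb3 call was lost with RLE factors (adjusted p = 0.0511) and without AMP replicate 1 or 2 or ENPP1+ATP replicate 2 or 3 (adjusted p from 0.0863 to 0.237).

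Elsewhere in the pathway, NRVM given ENPP1+ATP had 2 of 12 other ligands up and 9 down (median -0.646), where 28.6% of all genes rose and 27.4% fell with a median of 0.00788. It also had 1 of 10 receptors up and 6 down (median -0.337), 1 of 12 latency and activation genes up and 8 down (median -0.517), 3 of 12 inhibitors up and 6 down (median -0.587), and 0 of 14 SMADs and SMAD regulators up and 9 down (median -0.281). Of 13 TGF-β targets, 12 fell and 0 rose (median -0.623), and of 7 BMP targets, 5 fell and 0 rose (median -0.971). Chrd, a BMP antagonist, fell from 15.2 to 3.19 CPM (-2.25 ± 0.15), Ltbp4 from 169 to 46.1 CPM (-1.87 ± 0.06) and Id3 from 63.8 to 21.3 CPM (-1.58 ± 0.10). Nbl1, another BMP antagonist, rose from 38.4 to 67.8 CPM (0.82 ± 0.06). Fibroblast markers moved with these falls: their sum went from 23639 CPM in vehicle to 10651 with ATP, 7876 with ENPP1+ATP and 11055 with AMP. Col1a1, itself a TGF-β target, fell from 16217 to 5414 CPM with ENPP1+ATP and Tcf21 from 54.0 to 11.04 CPM, whereas Dcn (63.4 and 66.5 CPM) and Lum (26.6 and 31.7 CPM) were no lower. Cardiomyocyte markers summed to 27404 CPM in vehicle, 25097 with ENPP1+ATP and 16034 with ATP. The sum of 2 monocyte markers went from 263 CPM in vehicle to 100.1 with ATP, 92.1 with ENPP1+ATP and 91.7 with AMP, that of 6 endothelial markers from 31.2 to 75.4, 45.6 and 59.1 CPM, and that of 5 mesothelial markers from 254 to 182, 216 and 192 CPM, and the part of cell makeup in these results was not tested.

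In single cells from the injured heart, 7460 barcodes of ENPP1CKO and 5347 of control were deposited, 68 barcodes occurred in both libraries, and 7260 and 5234 cells were kept, with median depths of 3367 and 3699 counts. With 1 library per genotype there is no test: values are CPM of the summed counts of a class with exact 95% Poisson intervals, and log2 ratios (ENPP1CKO over control) with exact conditional binomial intervals, which cover counting error only. Cells fell into 18 clusters, and a cluster was called by a cell type only from its markers. Fibroblast-like cells, 3676 in ENPP1CKO and 1794 in control with median depths of 4023 and 5067 counts, made up clusters 0, 3, 4, 7 and 11, whose makeup differed by genotype: cluster 3 held 1191 and 172 cells and cluster 7 held 77 and 276. Enpp1, the deleted gene, reached 28.5 CPM (26.0 to 31.3) in fibroblast-like cells of ENPP1CKO against 126 CPM (119 to 133) in those of control, or -2.14 as a log2 ratio (-2.30 to -1.99), although a 3′ tag may lie outside the deleted part and does not then check the deletion itself.

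Each member had its own spread over cell types. Tgfb3 and Ltbp2 stood at 200 and 300 CPM in control fibroblast-like cells against 10.5 and 8.16 CPM in control macrophage-like cells. In these macrophage-like cells Ltbp2 reached 2.72% of its fibroblast-like level, where known fibroblast genes reached 2.04%. The part of RNA from other cells in these counts was not tested. Tgfb1 was highest in the T or NK cell-like cells of control (266.5 CPM, 211 to 332, from 79 counts), followed by B cell-like (173, 104 to 271), endothelial-like (169.5, 137 to 207.5) and macrophage-like cells (158, 149 to 167), whose intervals overlapped, and it was lower in fibroblast-like cells (58.6, 53.9 to 63.6). In ENPP1CKO the T or NK cell-like (185 CPM, 142 to 236), macrophage-like (183, 173 to 193) and endothelial-like cells (170.2, 151 to 191) overlapped, and B cell-like cells were at 38.0 CPM from 6 counts. In control, Tgfbr1 was highest in macrophage-like cells (147, 139 to 155), and Tgfbr2 in endothelial-like cells (132, 103 to 166). Endothelial-like Tgfbr2 was at 193% of its fibroblast-like level in control but at 111% in ENPP1CKO, where mesothelial-like cells were at 95.6%. Bmp4 was found in endothelial-like cells (28.9, 16.5 to 46.9) and fibroblast-like cells (22.6, 19.8 to 25.8) of control, which did not differ beyond counting error, and in macrophage-like cells had 4 counts. In control, Tgfb2 was at 91 CPM in both fibroblast-like (85.2 to 97.2) and smooth muscle or pericyte-like cells (63.3 to 126). It was higher in the 115 mesothelial-like cells of control (188 CPM), where Inhba (85.1 CPM) was also above its level in fibroblast-like cells (47.3). The 29 mesothelial-like cells of ENPP1CKO did not show this order, with 53.5 CPM of Tgfb2 (10 counts) and 16.1 CPM of Inhba (3 counts) against 59.3 and 33.4 CPM in fibroblast-like cells. In the smooth muscle or pericyte-like cells, Tgfb2 stood at 178% of its fibroblast-like level in ENPP1CKO and at 99.8% in control. Grem1 had 1 count in ENPP1CKO and 0 in control fibroblast-like cells, and a count of 0 allows up to 0.306 CPM there.

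**Figure D4:**
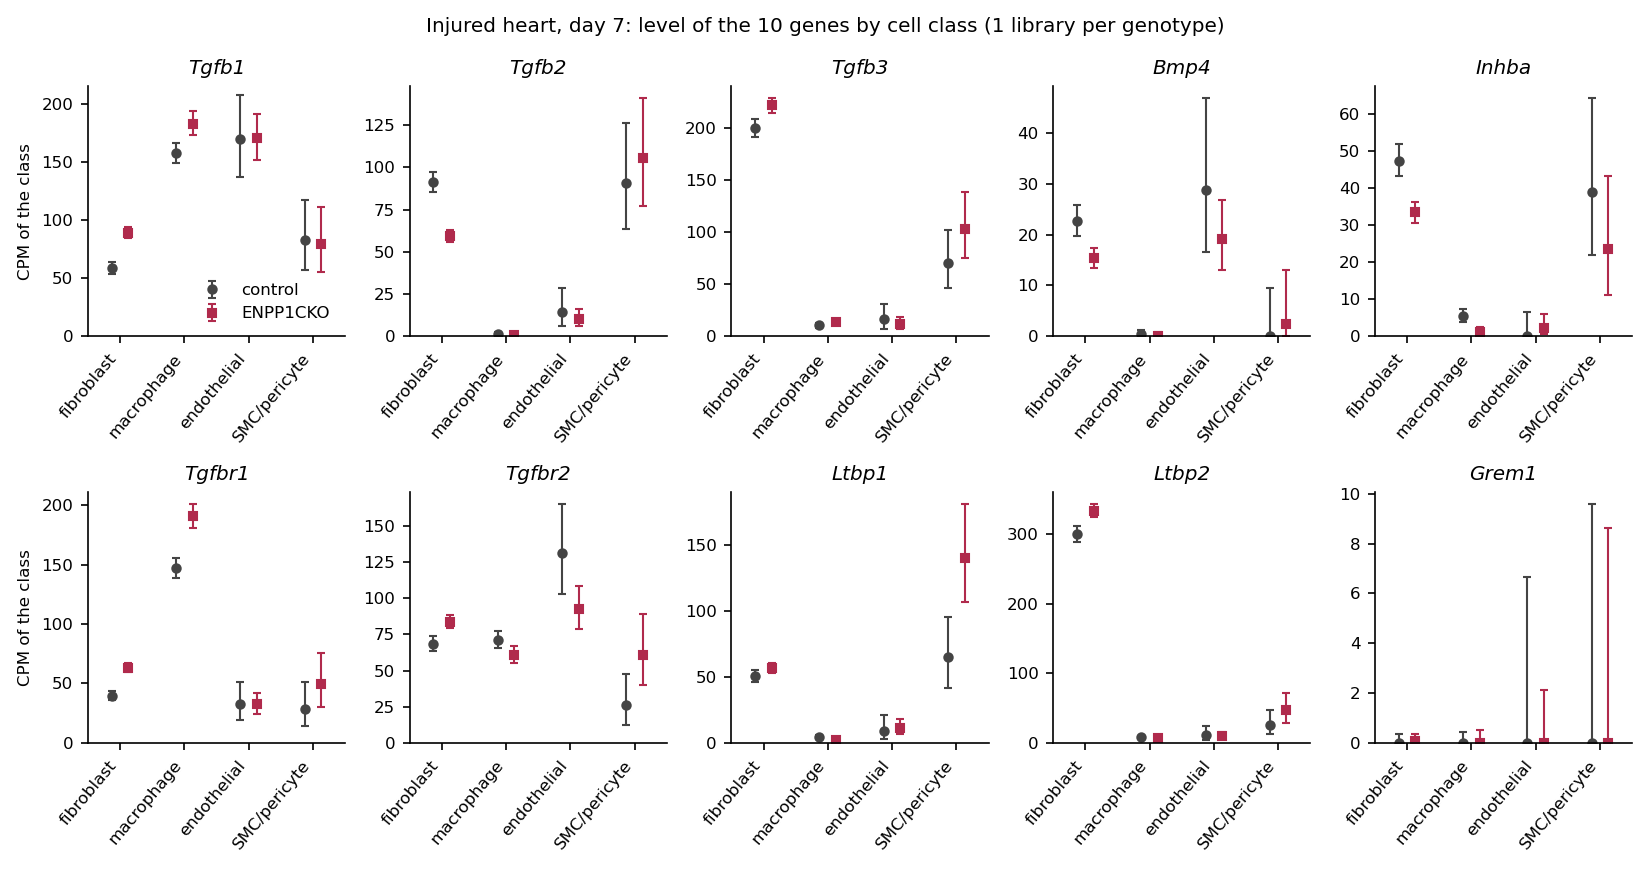
CPM of each gene (y axis) in 4 cell classes (x axis) of the control and ENPP1CKO libraries, with 95% Poisson intervals for counting error only. Ltbp2 and Tgfb3 stand out in fibroblast-like cells, and Tgfbr1 in macrophage-like cells.

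Between the genotypes, 9 of the 10 members reached 20 counts in the fibroblast-like class, and 2 were at least 1.5-fold higher and 1 at least 1.5-fold lower in ENPP1CKO, where 13.9% of 12647 genes lay past that fold in either direction. Tgfb2 was lower, at 59.3 CPM (55.6 to 63.2) against 91.1 CPM (85.2 to 97.2), a log2 ratio of -0.62 (-0.75 to -0.49). Tgfb1 was higher, at 89.2 against 58.6 CPM (0.61, 0.47 to 0.75), as was Tgfbr1, at 63.1 against 39.8 CPM (0.67, 0.50 to 0.84). The share of fibroblast-like cells with a Tgfb2 count was 19.6% in ENPP1CKO and 31.0% in control, and 5.16% and 8.63% after every cell was thinned to 1000 counts, which kept 3566 and 1750 cells. Among macrophage-like cells, a class not known for Tgfb2, the shares were 0.248% and 0.494% at median depths of 3255 and 3235 counts. Bmp4 (15.4 and 22.6 CPM, -0.56) and Inhba (33.4 and 47.3 CPM, -0.50) were lower by less than 1.5-fold, Tgfbr2 was higher by 0.30, and Tgfb3, Ltbp1 and Ltbp2 differed by 0.15 to 0.16. Thinned, the ratio was -0.77 for Tgfb2 and 0.71 for Tgfb1, but 0.36 for Tgfbr1 with an interval that included 0, -0.92 for Bmp4 and -0.10 (-0.24 to 0.05) for Ltbp2, the opposite sign to its unthinned ratio.

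**Figure D5:**
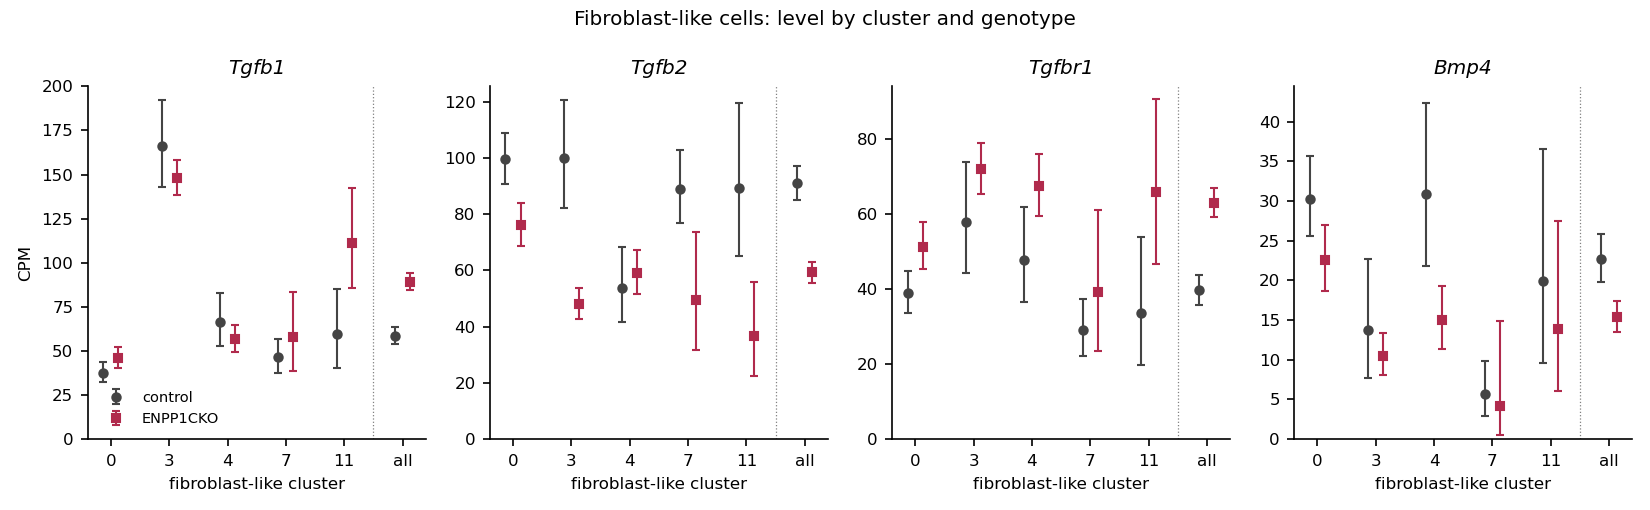
CPM (y axis) of 4 genes in each fibroblast-like cluster and in all of them (x axis), by genotype, with 95% Poisson intervals for counting error only. Tgfb1 is highest in cluster 3, the cluster with 1191 ENPP1CKO and 172 control cells, and there the genotypes overlap, while Tgfb2 is lower in ENPP1CKO in 4 of the 5 clusters.

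Within clusters the genes parted ways. Tgfb1 in cluster 3 was 148 CPM in ENPP1CKO and 166 CPM in control (log2 ratio -0.17, -0.40 to 0.07), far above 45.8 and 37.7 CPM in cluster 0, and its ratio had an interval without 0 only in cluster 11 (0.90, 0.25 to 1.58), while cluster 3 made up a larger part of the ENPP1CKO class. The part of this makeup in the higher Tgfb1 of the class was not tested. Tgfb2 was lower in ENPP1CKO in cluster 0 (76.0 against 99.6 CPM), cluster 3 (48.0 against 100 CPM), cluster 7 (49.5 against 89.1 CPM) and cluster 11 (36.5 against 89.4 CPM), but not in cluster 4 (59.01 against 53.6 CPM, 0.14, -0.26 to 0.56). Tgfbr1 was higher in ENPP1CKO in all 5 clusters, by log2 ratios of 0.32 to 0.97, and the intervals of clusters 3 and 7 included 0. Bmp4 was lower in all 5, by 0.40 to 1.05 on the log2 scale, with intervals without 0 in clusters 0 and 4.

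In macrophage-like cells (2014 and 2427), 7 members had at least 20 counts. Past 1.5-fold lay 19.1% of 10805 genes, 4.21% higher and 14.9% lower, and the median log2 ratio of the class was -0.132. Of the 7 members, 0 were higher and 2 lower past that fold. These were Inhba (9 and 45 counts, log2 ratio -2.07, -3.29 to -1.02) and Ltbp1 (13 and 37 counts, -1.26), both sparse. Tgfbr1 was 191 CPM in ENPP1CKO against 147 CPM (0.38, 0.26 to 0.49), and Tgfb1 183 against 158 CPM (0.21, 0.10 to 0.33). The makeup of the class differed, since macrophage-like cluster 6 held 54 ENPP1CKO and 820 control cells. Within clusters the Tgfbr1 ratio was 0.13 (-0.05 to 0.30) in cluster 1, 0.20 (0.04 to 0.36) in cluster 2 and -0.53 (-1.87 to 0.55) in cluster 6, and the Tgfb1 ratio was 0.15 (-0.02 to 0.32), 0.04 (-0.13 to 0.21) and 0.94 (0.35 to 1.49).

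Other pathway genes in fibroblast-like cells were described by the same fold, past which 6.76% of all genes were higher and 7.18% lower. Of 14 TGF-β targets with at least 20 counts, 5 were lower and 0 higher in ENPP1CKO (median log2 ratio -0.443, beside 0.0128 over all genes): Acta2 (253 against 1053 CPM, -2.06), Tagln (-1.05), Tgfbi (-0.97), Nuak1 (-0.86) and Ccn1 (-0.78), which were named after their values were seen. Acta2 and Tagln are also among the leading genes of cluster 7, which held fewer ENPP1CKO cells. Col1a2 (7208 against 8103 CPM, -0.17) and Postn (5094 against 4948 CPM, 0.04) lay within 1.5-fold. Of 11 latency and activation genes 2 were higher and 1 lower (median 0.0391), the latter Thbs1, a TGF-β activator (439 against 776 CPM, -0.82). Of 9 other ligands 2 were higher and 2 lower (median -0.0293), of 10 other receptors 1 and 0 (0.0708), of 10 inhibitors 0 and 1 (0.0977), of 15 SMADs and SMAD regulators 0 and 1 (0.0336), and of 7 BMP targets 1 and 0 (-0.0545). Id3 was 1801 CPM in ENPP1CKO and 1870 CPM in control (-0.05).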

How the data were processed

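Bulk libraries were CF and NRVM cultures, and the single-cell libraries came from injured hearts. The authors deposited raw read counts per gene for CF and NRVM and unique molecule counts per gene and cell for single cells, made per the submitters' processing notes with STAR 2.5.3a and Cell Ranger on mm10 and rn6. The counting program and its strand setting are not given in the sources used here, so reads of Ltbp2 and its antisense partner D030025P21Rik, which share 9.34% of the Ltbp2 exon bases, cannot be told apart, and the same holds for smaller overlaps at Bmp4, Tgfb2 and Tgfb3. All columns of the tables were mapped to samples by their names, and 0 were left out.

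Bulk counts were tested with edgeR 4.0.16 in R 4.3.3 (TMM factors, filter by group, robust quasi-likelihood fit of 1 mean per group over all 20 CF or all 15 NRVM libraries), with Benjamini-Hochberg adjustment and a threshold of 0.05. The fit was tested on simulated data, whose outcome is not given here. Alternatives were DESeq2 1.42.0, RLE factors, no filter, libraries of 1 time, a replicate block and leaving out each library. Replicate numbers were not treated as pairs in the main fit. Deviations of same-numbered libraries correlated at a median r of 0.0125 over 90 CF pairs (-0.112 to 0.277). Over 30 NRVM pairs the median was 0.0143 (-0.166 to 0.124). These values do not exclude pairing of some libraries. Cells were clustered with scanpy 1.11.5 under Python 3.11.15 (at least 200 genes, at most 20% mitochondrial counts, 146 and 75 Scrublet doublets removed, 2000 variable genes, 30 components, 15 neighbours, Leiden resolution 0.5), and 30934 of 31053 gene IDs were matched to symbols. Intervals of single cells are 95% and use a floor of 3 counts at 0, and cover counting error only. The fold of 1.5 used for single cells was chosen after the values were known.

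The members, the pathway lists and the markers were chosen with earlier results of these data known. Named beside the members were, per pathway list, up to 2 largest rises and 2 largest falls past the threshold with ENPP1+ATP (mean log2 CPM of at least 1), of which a part is printed, in single cells the 2 genes per list with most counts, and for 3 members the 3 most correlated of 10881 genes (mean log2 CPM of at least 2). Promoters came from RefSeq.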

Additional observations from a re-analysis of the deposited data

Results flagged for a closer look

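The effect of a medium against vehicle differed between 48 and 24 hours for these CF results, each by edgeR's quasi-likelihood test of the difference itself (log2 effect at 48 hours minus that at 24 hours, adjusted over all genes). With ENPP1+ATP the difference was 0.87 ± 0.12 for Tgfb2, 0.38 ± 0.12 for Tgfb3 (adjusted p = 0.0157), 0.45 ± 0.11 for Bmp4 (adjusted p = 0.00347), 0.82 ± 0.13 for Inhba, 0.87 ± 0.07 for Tgfbr2, 0.97 ± 0.12 for Ltbp1, 1.04 ± 0.34 for Ltbp2 (adjusted p = 0.0224) and 1.15 ± 0.27 for Grem1 (adjusted p = 0.00477). With AMP it was -0.45 ± 0.09 for Tgfb1, 0.60 ± 0.12 for Tgfb2, 0.57 ± 0.11 for Tgfb3, 1.07 ± 0.11 for Bmp4, 1.04 ± 0.13 for Inhba, 1.05 ± 0.07 for Tgfbr2 and 0.83 ± 0.12 for Ltbp1. With ATP it was 0.28 ± 0.07 for Tgfbr2 (adjusted p = 0.0332). The calls for Ltbp2 and Tgfb3 with ENPP1+ATP were lost without ENPP1+ATP replicate 1 or vehicle replicate 1 at 24 hours or ENPP1+ATP replicate 2 at 48 hours, and also without vehicle replicate 2 (Ltbp2) or 1 (Tgfb3) at 48 hours, and that for Tgfbr2 with ATP without any 1 of its 8 libraries (adjusted p from 0.0739 to 0.216). For Tgfbr2 the effect of ENPP1+ATP and of AMP changed sign between the times, and for Bmp4 and Tgfb2 it stayed negative at both. The time differences share their vehicle libraries, in which Ltbp1 fell by 0.85 between the times. The part of CF death in these differences was not tested.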

How the results depend on the processing

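The counts of members called kept within 1.5 times of their values under DESeq2, RLE factors, no filter, libraries of 1 time and the replicate block, except for the ATP effect at 48 minus 24 hours (1 member, but 2 with no filter and 2 with DESeq2). Leaving out 1 library gave 0 to 0 members for that result, 2 to 5 for CF ATP against vehicle at 48 hours, 1 to 2 for CF AMP against ENPP1+ATP at 24 hours and 1 to 2 for vehicle at 48 against 24 hours. The replicate block removed 1 call, Tgfb2 in NRVM with AMP (-0.14, adjusted p = 0.0736), and added 1, Grem1 in the AMP effect at 48 minus 24 hours (0.70, adjusted p = 0.0222), which DESeq2 (adjusted p = 0.0432) and no filter also added. Tgfb3 with AMP at 48 hours lost its call with RLE factors (adjusted p = 0.0712), and with libraries of 1 time it (adjusted p = 0.0823), Ltbp1 with ATP at 24 hours (adjusted p = 0.0594) and Tgfbr2 with ATP at 48 hours (adjusted p = 0.0588) lost theirs. In the bulk comparisons with vehicle, signs turned only for changes near 0 that were not called. Leaving out 1 library at a time, Tgfb1 with ATP in CFs ranged from -0.10 to 0.011 at 24 hours and from -0.016 to 0.080 at 48 hours, Tgfbr1 with ATP at 24 hours from -0.053 to 0.10 (also -0.016), Grem1 with ENPP1+ATP from -0.11 to 0.21 in CFs at 24 hours (also -0.065) and from -0.14 to 0.32 in NRVM, Tgfbr1 with AMP at 24 hours from -0.072 to 0.054 (also 0.018), Ltbp1 with ENPP1+ATP at 48 hours from -0.088 to 0.049 (also 0.0020) and Ltbp1 with AMP at 48 hours from -0.023 to 0.11. Without the filter Grem1 with ENPP1+ATP in CFs, 24 h, was -0.00017. RLE factors and DESeq2 turned Tgfbr1 with AMP at 24 hours (0.0165 and 0.0156) and Ltbp1 with ENPP1+ATP at 48 hours (0.00874 and 0.0085), and libraries of 1 time turned the former (0.00091). Ltbp2 with ENPP1+ATP at 24 hours passed with RLE factors (0.60, adjusted p = 0.045), as did Tgfbr1 with AMP at 48 hours (0.20, adjusted p = 0.048), and Grem1 with AMP in CFs at 24 hours passed without the filter (0.25, adjusted p = 0.02). In NRVM, Ltbp1 with ATP passed without ATP replicate 2 (-0.70, adjusted p = 0.0323) and Tgfbr1 with AMP without vehicle replicate 1 (-0.28, adjusted p = 0.0247). With cells thinned to 1000 counts, 6 single-gene values of the single cells moved, 12 stayed the same and 1 turned sign. The one that turned was Ltbp2 in fibroblast-like cells, to -0.10. The cause of these changes was not tested. The counts at Grem1 in NRVM and at Ltbp2 in CFs limit what could be seen there, and 1 library per genotype limits every single-cell value.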
